A study of Mus musculus with 6 samples.

Results

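Natural killer (NK) cells kill by releasing lysosome-like granules onto a target cell, and 6 genes that build these granules, move them or protect the killer from their contents are described here: Nkg7, Lamp1, Ctsw, Ctsc, Serpinb9 and Rab27a. They were chosen by symbol, and all 6 were found among the 559 genes of the deposited table. The samples were NK cells purified from the spleens of C57BL/6 mice. One group was kept for 36 h with oleic acid (OA), a common dietary fatty acid, at 0.2 mM, and the other, called control, for the same 36 h without it, with 3 libraries in each. The comparison asks which transcripts differ between NK cell libraries with and without OA. Genes used as markers of myeloid and B cells were also present in every library, so no value can be assigned to NK cells alone. Per the labels, the treatment was carried out a single time, and nothing in the labels says that the libraries came from separate mice or cultures. The p-values therefore measure only the spread between these libraries, which may be technical.

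Granules are made in the secretory and lysosomal pathway. Granzymes enter them as inactive precursors that cathepsin C trims into active proteases, and the granule membrane carries LAMP1 and NKG7. On contact with a target, RAB27A docks the granules at the plasma membrane, and granzyme B that leaks into the cytosol of the killer cell is blocked by the serpin SERPINB9. Cathepsin W is a protease found mainly in NK cells and cytotoxic T cells whose substrates are poorly known.

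Of these 6 genes, Nkg7, Ctsw, Serpinb9 and Rab27a fell after OA, by 14.6% to 22.6% of the mean control level. Ctsc was lower and Lamp1 higher in OA, and neither passed the test. The test was limma on log2(TPM + 1) over all 559 genes, with a Benjamini-Hochberg adjusted p under 0.05. TPM is a transcript's share of its library corrected for length, so levels of different genes can be compared. At this threshold 4 of the 6 genes were lower and 0 were higher (1 at an unadjusted p under 0.05, Lamp1), and 40.1% of all listed genes were lower and 36.0% were higher. The authors listed only genes with a Q value under 0.05 in these same libraries, so a call within the table was likely for any gene, and 76.0% of listed genes were called in one direction or the other. All 6 genes had groups of libraries that did not overlap, as did 93.6% of the listed genes: in 5 of the 6 the OA libraries were the lower ones, against 48.5% of listed genes, and in 1 the higher ones, against 45.1%. In bulk RNA, fewer cells of a type and less RNA per cell cannot be told apart.

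For Nkg7, Rab27a and Lamp1 the sequence upstream of the gene is shown, since the first pair fell in OA and the third was higher. The sequences are RefSeq's on GRCm38.p6, plus strand, 5′ to 3′. Each ends just before the earlier of the RefSeq and GENCODE M21 starts. For Rab27a, which has 2 listed starts, the first is printed. Capitals mark matches on either strand to the 7 motifs searched: ETS (CCGGAAG), RUNX (TGTGGT), T-box (GGTGTGA), the E-box found in lysosomal gene promoters (TCACGTG), STAT (TTCNNNGAA), AP-1 (TGANTCA) and SP1 (GGGCGG).
Nkg7, chr7:43436888-43437072: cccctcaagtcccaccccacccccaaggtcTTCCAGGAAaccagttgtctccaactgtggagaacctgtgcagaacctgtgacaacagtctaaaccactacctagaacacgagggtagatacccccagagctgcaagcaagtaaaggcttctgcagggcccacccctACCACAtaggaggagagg
Rab27a, chr9:73044560-73044809: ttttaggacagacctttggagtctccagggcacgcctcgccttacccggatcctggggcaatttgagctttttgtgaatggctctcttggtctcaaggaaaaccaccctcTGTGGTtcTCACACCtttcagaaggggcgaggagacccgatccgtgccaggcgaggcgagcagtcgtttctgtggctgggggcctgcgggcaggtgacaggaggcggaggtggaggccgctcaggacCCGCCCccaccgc
Lamp1, chr8:13158911-13159160: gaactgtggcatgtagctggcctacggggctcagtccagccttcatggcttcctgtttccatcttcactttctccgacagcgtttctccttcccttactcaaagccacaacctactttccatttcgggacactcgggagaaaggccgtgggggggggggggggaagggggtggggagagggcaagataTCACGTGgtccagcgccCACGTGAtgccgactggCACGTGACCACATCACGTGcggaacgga

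Of the 6 genes, 5 had an entry in the promoter table. Ctsw did not. The windows searched held 300 bases, 250 before the RefSeq transcript start and 50 from it onward, with base 0 the first transcribed base. For Serpinb9 and Ctsc the transcript start used lay inside the RefSeq gene span given below. It was 33004541 for Serpinb9, whose span begins at 32997061, and 88278085 for Ctsc, whose span begins at 88278024. Positions in these windows count from the transcript start and not from the beginning of the span. The Lamp1 window held 4 E-box matches, at −62 to −56, −45 to −39, −28 to −22 and −16 to −10. The third of these shares its last base with a RUNX match at −22 to −17. Among all 32851 windows, 3.77% held at least 1 such E-box match and 25 windows held 4 or more. The other 4 genes with an entry held none. T-box proteins include T-bet and Eomes, transcription factors of the NK lineage, and a T-box match stood in the windows of Nkg7 (−13 to −7, beyond the printed stretch), Ctsc (−117 to −111) and the first start of Rab27a (−132 to −126), against 3.98% of all windows. A RUNX match lay beside it in Rab27a (−140 to −135), and RUNX matches also stood in Nkg7 (−83 to −78) and Serpinb9 (10 to 15); 16.8% of all windows held one. STAT matches stood in Nkg7 (−220 to −212) and Ctsc (−236 to −228), against 8.30% of all windows. SP1 matches stood in Ctsc, Serpinb9 and the first start of Rab27a, against 35.7% of all windows. No window of the 5 genes held an ETS or AP-1 match, which 8.86% and 7.81% of all windows did. A match is a run of letters and does not show that a factor binds there.

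**Figure D1:**
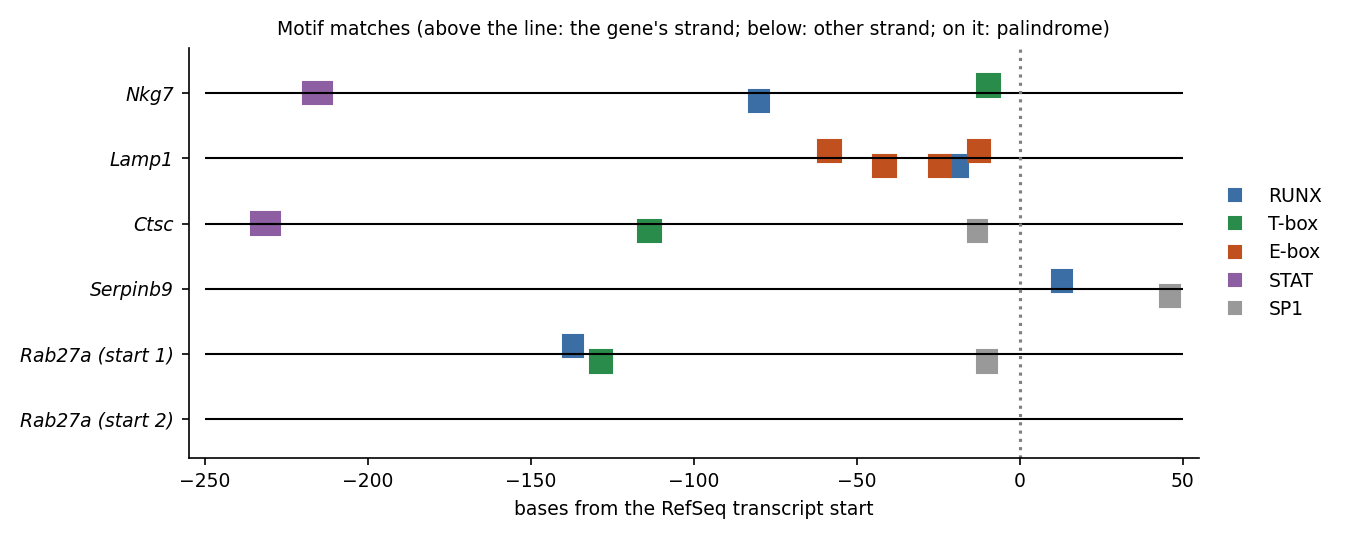
Motif matches in the windows of 5 genes, with distance in bases from the RefSeq transcript start on the horizontal axis and 1 line per start. Boxes above a line lie on the gene's strand, boxes below it on the other strand and boxes on it are palindromes; the 4 E-box matches of Lamp1 sit between −62 and −10.

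Of the granule membrane genes, Nkg7 fell and Lamp1 did not pass. Nkg7 encodes a membrane protein of cytotoxic granules that is needed for their release. It lies on chromosome 7 from 43437138 to 43438246 (gene 72310; this and the following spans are RefSeq's on GRCm38, the build also called mm10). Nkg7 stood at 485, 466 and 394 TPM in OA replicates 1, 2 and 3, against 575, 559 and 604 TPM in control replicates 1, 2 and 3. Each OA library was below each control library, with 74.0 TPM between the nearest of them. The means were 448 ± 47.8 TPM in OA and 579 ± 22.4 TPM in control (SD, n = 3 each), and the log2 fold change was −0.37 (SE 0.0930, 95% interval −0.61 to −0.14, adjusted p = 0.0282, limma).

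Lamp1 encodes a heavily glycosylated lysosomal membrane protein, known as CD107a, whose appearance on the cell surface is used as a sign of degranulation; cells of all kinds carry it on their lysosomes. It lies on chromosome 8 from 13159161 to 13175338 (gene 16783). Lamp1 stood at 547, 562 and 573 TPM in OA replicates 1, 2 and 3, against 515, 523 and 468 TPM in control replicates 1, 2 and 3. It was the one gene of the 6 with every OA library above every control library, and the groups were 23.9 TPM apart. The means were 561 ± 12.9 TPM in OA and 502 ± 29.4 TPM in control, and the log2 fold change of 0.16 (SE 0.0612, 95% interval 0.01 to 0.31) did not pass (adjusted p = 0.0552, limma). It passed with a pseudocount of 10 (adjusted p = 0.0443), with genes under a mean of 10 TPM left out (0.0445) and with a robust prior that follows intensity (0.0393), and over all alternatives adjusted p ranged from 0.0393 to 0.163.

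Of the cathepsin genes, Ctsw fell and Ctsc did not pass. Ctsw, which encodes cathepsin W, lies on chromosome 19 from 5465043 to 5468628 (gene 13041). Ctsw stood at 135, 126 and 111 TPM in OA replicates 1, 2 and 3, against 158, 148 and 166 TPM in control replicates 1, 2 and 3. The groups were separated by 13.2 TPM, less than the range of 24.1 TPM within OA. The means were 124 ± 12.3 TPM in OA and 157 ± 9.22 TPM in control, with a log2 fold change of −0.35 (SE 0.0929, 95% interval −0.58 to −0.11, adjusted p = 0.0301, limma).

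Ctsc encodes cathepsin C, the dipeptidyl peptidase that activates granzymes and, in neutrophils and mast cells, other serine proteases. It lies on chromosome 7 from 88278024 to 88315861 (gene 13032). Ctsc stood at 130.4, 126 and 111 TPM in OA replicates 1, 2 and 3, against 134, 131 and 155 TPM in control replicates 1, 2 and 3. The groups were 0.38 TPM apart, between OA replicate 1 and control replicate 2. The means were 122 ± 10.4 TPM in OA and 140.2 ± 13.2 TPM in control, and the log2 fold change of −0.19 (SE 0.0993, 95% interval −0.44 to 0.06) did not pass (adjusted p = 0.117, limma). Replicate 3 of the groups made most of this difference, since the log2 fold change was −0.05 without both of them (adjusted p = 0.298), −0.12 without OA replicate 3 and −0.12 without control replicate 3.

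Serpinb9, which encodes the granzyme B inhibitor also known as SPI6, lies on chromosome 13 from 32997061 to 33017955 (gene 20723). It stood at 498, 493 and 428 TPM in OA replicates 1, 2 and 3, against 537, 543 and 582 TPM in control replicates 1, 2 and 3. The pair of OA libraries numbered 1 and 2 lay close together and the groups were 39.4 TPM apart. The means were 473 ± 39.2 TPM in OA and 554 ± 24.6 TPM in control, with a log2 fold change of −0.23 (SE 0.0799, 95% interval −0.43 to −0.03, adjusted p = 0.0457, limma). Without replicate 3 of both groups the log2 fold change was −0.12 (adjusted p = 0.0413). Serpinb9 has near relatives in the mouse genome, and how reads shared between them were assigned was not given in the sources used here.

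Rab27a encodes a small GTPase that docks cytotoxic granules at the membrane, and its loss in ashen mice blocks granule release. It lies on chromosome 9 from 73044810 to 73097623 (gene 11891). Rab27a stood at 64.05, 60.97 and 51.41 TPM in OA replicates 1, 2 and 3, against 70.2, 69.37 and 70.8 TPM in control replicates 1, 2 and 3. The control libraries lay within 1.43 TPM of each other, while the OA libraries spanned 12.6 TPM, all below control. The means were 58.8 ± 6.59 TPM in OA and 70.1 ± 0.718 TPM in control, with a log2 fold change of −0.26 (SE 0.0916, 95% interval −0.49 to −0.02, adjusted p = 0.0479, limma). It was −0.16 without OA replicate 3 (adjusted p = 0.0475) and −0.16 without replicate 3 of both groups.

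**Figure D2:**
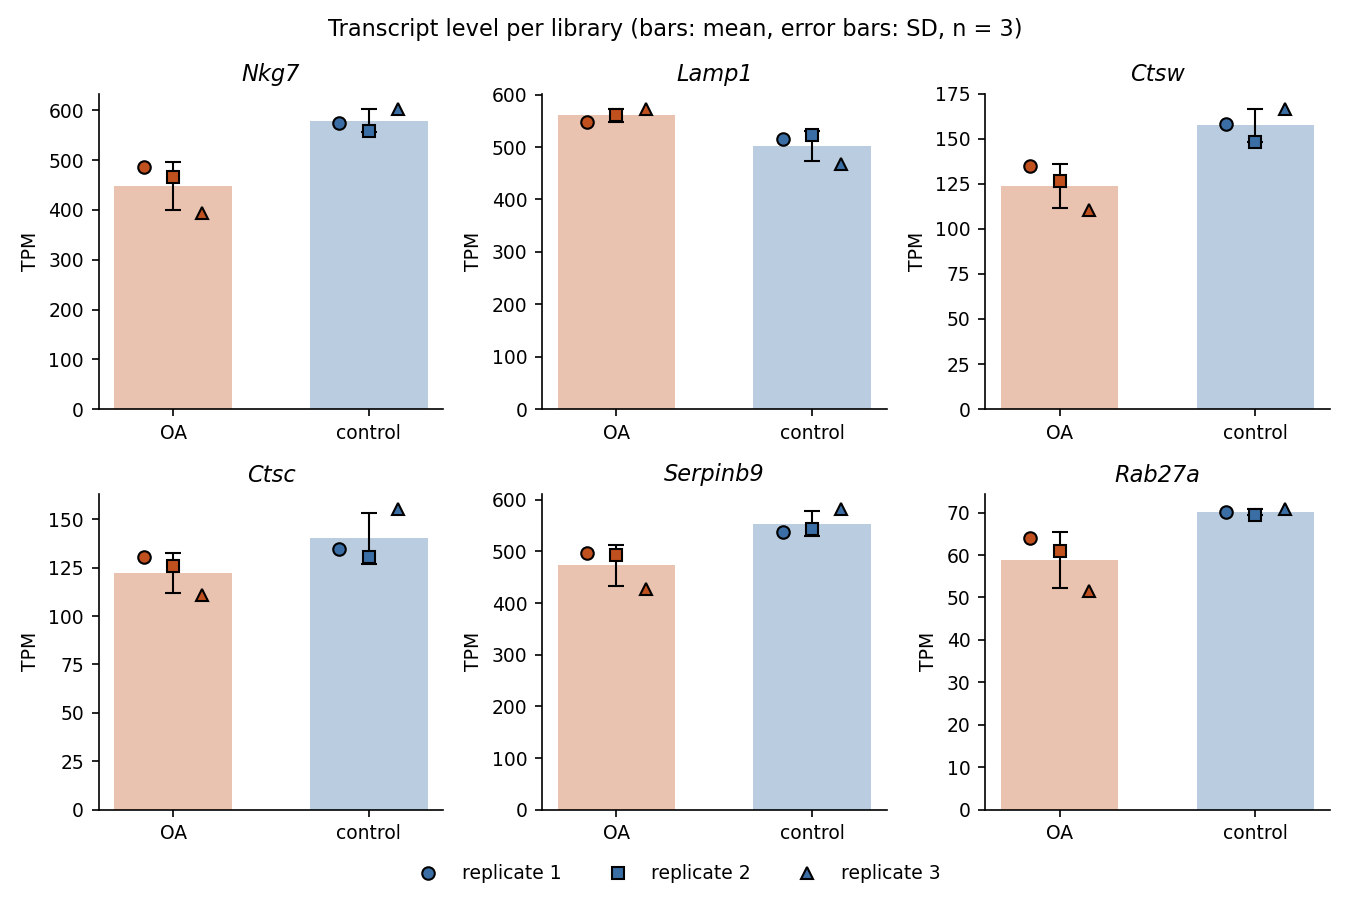
TPM of the 6 genes in each library, OA left and control right, with bars for the mean, error bars for the SD (n = 3) and a marker shape for each replicate number. In all 6 genes the OA and control libraries do not overlap, and replicate 3 of each group lies farthest from the other group; in Lamp1 the OA libraries are the higher ones, at 547 to 573 TPM.

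The calls rested on few libraries. Nkg7 did not pass without OA replicate 2 (adjusted p = 0.0793, limma) or without control replicate 1, 2 or 3 (0.0733, 0.0554 and 0.0681), and the same omissions gave 0.0818, 0.0778, 0.0552 and 0.0755 for Ctsw and 0.0923, 0.112, 0.0975 and 0.109 for Rab27a. This was not particular to these genes. Without OA replicate 2 or without control replicate 1, 0 listed genes passed in either direction. Without control replicate 2, 13 listed genes were lower and 87 higher, and without control replicate 3, 30 were lower and 119 higher. Serpinb9 did not pass without any of the libraries, with adjusted p of 0.0540, 0.0852 and 0.0625 without OA replicates 1, 2 and 3 and of 0.0892, 0.0871 and 0.109 without control replicates 1, 2 and 3 (limma). For all 6 genes an exact two-sided permutation test on TPM gave p = 0.1, the smallest that 3 against 3 allows. In the authors' deposited table all 6 genes passed, with Q values of 2.88e-05 for Nkg7, 0.00153 for Ctsw, 0.00288 for Serpinb9, 0.0257 for Ctsc, 0.0300 for Lamp1 and 0.0424 for Rab27a, and with log2 fold changes from −0.36 (Nkg7) to 0.17 (Lamp1).

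The order of the transcript levels differed between the groups. In OA, Lamp1 was the highest, followed by Serpinb9, Nkg7, Ctsw, Ctsc and Rab27a. In control the order was Nkg7, Serpinb9, Lamp1, Ctsw, Ctsc and Rab27a. Serpinb9 and Nkg7 overlapped in their library values in both groups, as did Ctsw and Ctsc, so their order is not resolved. Lamp1 stood above the range of Serpinb9 and Nkg7 in OA and below it in control. The 6 genes together held 1668 to 1859 TPM in the OA libraries and 1973 to 2046.5 TPM in the control libraries.

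Replicate 3 stood apart in both groups. For each of the 6 genes OA replicate 3 was the OA library farthest from control, and control replicate 3 the control library farthest from OA. Both held together for 350 of the 559 listed genes, or 62.6%. Genes of heart muscle, fixed as a list of 40 with 23 in the table, summed to 61.3, 576 and 7749 TPM in OA replicates 1, 2 and 3, against 42.4, 68.9 and 52.7 TPM in control replicates 1, 2 and 3. Their part in the values of the 6 genes was not tested. Without OA replicate 3 the 6 log2 fold changes lay between −0.28 (Nkg7) and 0.14 (Lamp1). Their directions could not have turned, as the groups do not overlap, and OA replicate 2, with 576 TPM, stayed in.

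Listed genes used as markers of cell types differed between the groups as well. Of 20 NK cell markers, 10 were listed and all 10 fell, with sums of 1514 to 1889 TPM in the OA libraries and 2187 to 2470 TPM in the control libraries; Il2rb and Xcl1 were the most abundant, and Ncr1, which encodes the NK receptor NKp46, stood at 91.8 ± 12.9 TPM in OA and 131 ± 7.42 TPM in control. Of 27 myeloid markers 13 were listed, of which 11 rose and 2 fell, with sums of 8272 to 8710 TPM in OA and 6591 to 7319 TPM in control, led by Il1b and Il1a. Of 19 B cell markers 6 were listed, of which 5 rose and 1 did not pass, with sums of 503 to 592 TPM in OA and 323 to 403 TPM in control, led by Ly6d and Cd79a. The 2 listed neutrophil markers of 13, Mmp8 and Mmp9, rose and summed to 548 to 603 TPM in OA and 347 to 462 TPM in control. The 2 listed mast cell and basophil markers of 14, Il13 and Mcpt8, fell and summed to 209.7 to 259 TPM in OA and 311 to 378 TPM in control. Il13 made up most of this sum, at 166 ± 18.2 TPM in OA and 244 ± 33.4 TPM in control. The 2 listed T cell markers of 16, Icos and Cd28, fell and summed to 194 to 239.7 TPM in OA and 259 to 291 TPM in control. No listed marker of these 6 cell types was at 0 in any library. Over all listed genes 40.1% fell and 36.0% rose. These sums do not separate the number of cells from the RNA per cell, and their part in the values of the 6 granule genes was not tested.

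Relative to the geometric mean of the listed NK markers, all 6 granule genes stood higher in OA, as did most of the table. That mean of 10 markers was 89.8 ± 11.2 TPM in OA and 122 ± 9.94 TPM in control, a log2 difference of −0.45. Divided by it, Nkg7 stood at 4.89, 5.03 and 5.09 in OA replicates 1, 2 and 3, against 4.86, 4.88 and 4.53 in control replicates 1, 2 and 3, so the OA values were higher by a factor of 1.05. The factor was 1.07 for Ctsw, 1.14 for Rab27a, 1.16 for Serpinb9, 1.19 for Ctsc and 1.52 for Lamp1. Of the 549 listed genes other than these markers, 90.2% had a higher mean in OA on this scale and 77.0% had every OA library above every control library. For each of the 6 the OA and control libraries did not overlap, which most of the table shared. The exact two-sided permutation test gave p = 0.1 for each of the 6, its smallest value with 3 against 3. The 10 markers are those that the authors' selection left in the table, and the other 10 were not analysed here.

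Ratios of Serpinb9, Ctsc and Ctsw to Gzmb were also higher in OA. Gzmb, which encodes granzyme B, stood at 1050 ± 144 TPM in OA and 1551 ± 207 TPM in control. Serpinb9 transcripts per Gzmb transcript numbered 0.423, 0.457 and 0.479 in OA replicates 1, 2 and 3, against 0.375, 0.380 and 0.325 in control replicates 1, 2 and 3. All 3 OA ratios of the inhibitor to its protease were above the control ratios, with a log2 difference of 0.33. The ratio of Ctsc to Gzmb was 0.111 to 0.124 in OA and 0.0867 to 0.0938 in control, and that of Ctsw to Gzmb was 0.115 to 0.124 in OA and 0.0929 to 0.110 in control, again without overlap. Gzmb fell more (log2 fold change −0.56) than Serpinb9 (−0.23), Ctsc (−0.19) or Ctsw (−0.35), so the higher ratios follow from those values. How many other listed genes stood higher in OA relative to Gzmb was not computed, so these ratios are not shown to be particular to the 3 genes.

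Prf1, the gene of perforin, which opens pores in the target cell, was the divisor for the other 3 genes. Nkg7 stood at 4.53, 3.97 and 4.21 per Prf1 transcript in OA replicates 1, 2 and 3, against 4.29, 4.45 and 4.04 in control replicates 1, 2 and 3. These groups overlapped, and the log2 difference was −0.01 (exact two-sided permutation test, p = 0.9). Rab27a per Prf1 overlapped too (log2 difference 0.10, exact permutation p = 0.5). Lamp1 per Prf1 was 4.79 to 6.11 in OA and 3.14 to 4.16 in control, a log2 difference of 0.53. Prf1 itself fell (log2 fold change −0.36) and Lamp1 was higher in OA, so the higher ratio follows from those values. For the 4 ratios without overlap the exact permutation test gave p = 0.1, adjusted to 0.15 over the 6 ratios compared, so none of them could pass.

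**Figure D3:**
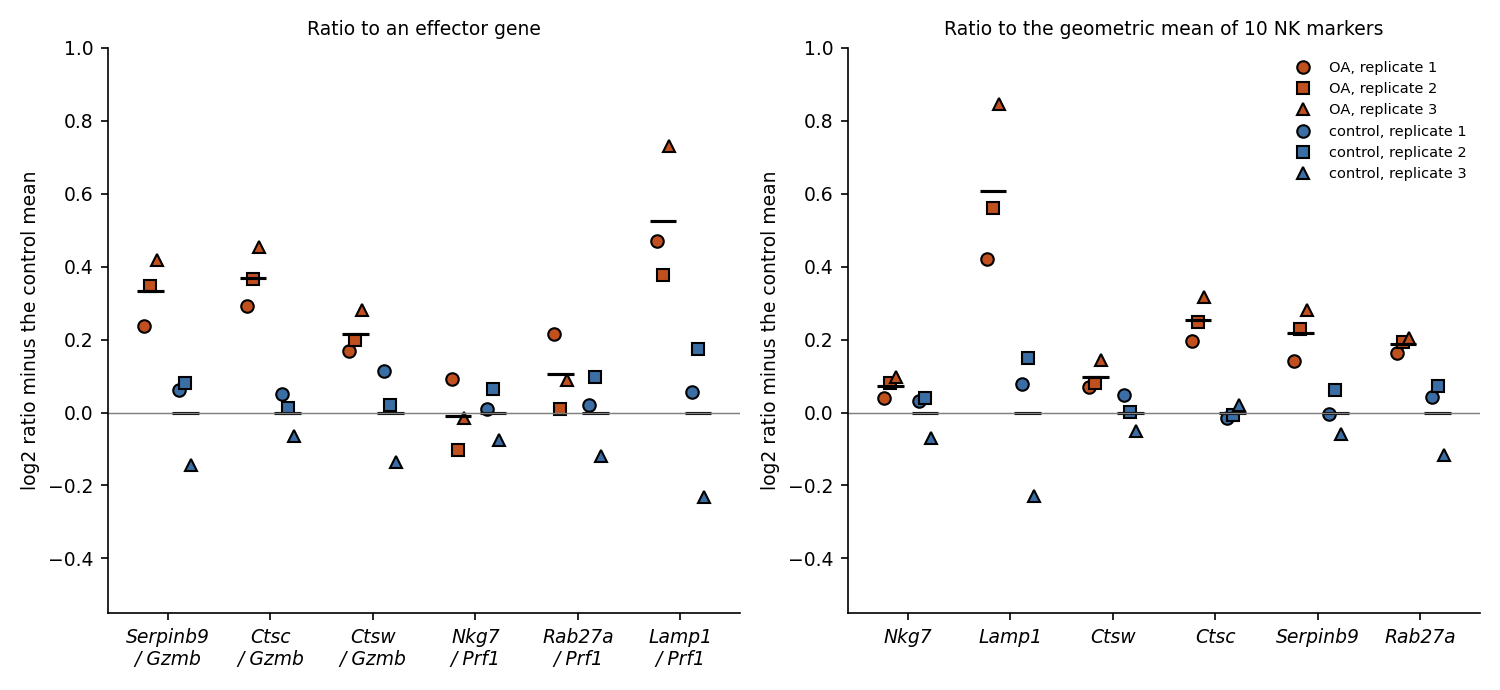
Ratios per library on a log2 scale, each set to a control mean of 0, with OA left of control, a marker shape for each replicate number and a line for each group mean; the left panel divides by Gzmb or Prf1 and the right panel by the geometric mean of 10 NK markers. Nkg7 and Rab27a per Prf1 overlap between the groups, and in the right panel all OA points lie above the control points of the same gene.

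Beyond the 6 genes, lists of granule and lysosome genes held 126 further symbols, of which 13 were in the table; 7 fell, 5 rose and 1 did not pass, with a median log2 fold change of −0.30, against 0.14 over all listed genes. For the 6 genes the median was −0.24. By the same test 40.1% of all listed genes fell and 36.0% rose. All 5 listed effectors of 13 fell: Gzma, Gzmb, Gzmc, Prf1 and the death ligand gene Tnfsf10 (TRAIL). In the transport and exocytosis list 3 of 41 genes were listed. Beside Rab27a, Sytl2, which encodes a protein that binds RAB27A on vesicles, fell to 14.98 ± 2.31 TPM in OA, against 20.4 ± 2.03 TPM in control (log2 −0.43, SE 0.135, adjusted p = 0.0372, limma). Wipf1, which encodes a partner of the actin regulator WASP, did not pass at 112 ± 8.47 TPM in OA and 127 ± 0.932 TPM in control (adjusted p = 0.0537, limma).

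Of 17 cathepsins and lysosomal proteases 6 were listed, of which 2 fell, 3 rose and 1, Ctsc, did not pass. Over all listed genes 40.1% fell and 36.0% rose, so a split of this kind is not particular to the proteases. Beside Ctsw, Ctsh fell; it encodes cathepsin H, which can also activate granzyme B, and stood at 202 ± 10.4 TPM in OA and 249 ± 21.4 TPM in control (adjusted p = 0.0304, limma). Ctsl, Lgmn and Ctsb rose; they encode cathepsin L, legumain and cathepsin B, endopeptidases of lysosomes that macrophages express strongly. Ctsl stood at 122 ± 16.8 TPM in OA and 76.3 ± 11.9 TPM in control (log2 0.67, SE 0.157, adjusted p = 0.0274, limma). Lgmn stood at 71.5 ± 1.13 TPM in OA and 59.6 ± 2.61 TPM in control (adjusted p = 0.0260, limma), and Ctsb at 978 ± 23.1 TPM in OA and 868 ± 48.5 TPM in control (adjusted p = 0.0458, limma). The myeloid marker sums given above were higher in the same OA libraries, and their part in these rises was not tested.

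Of 17 serpins and cystatins, 2 were listed, and beside Serpinb9 there was Serpinb2. It encodes the inhibitor of plasminogen activators known as PAI-2 and rose to 529 ± 46.2 TPM in OA, against 310 ± 68.7 TPM in control (log2 0.79, SE 0.188, adjusted p = 0.0278, limma). Serpinb2 thus stood above Serpinb9 in OA replicates 2 and 3 and below it in OA replicate 1 and in all control libraries. Of 24 lysosome biogenesis factors 1 was listed: Gga2, which encodes an adaptor that sorts lysosomal enzymes at the Golgi, rose to 20.6 ± 0.586 TPM in OA, against 16.6 ± 0.757 TPM in control (adjusted p = 0.0260, limma). Of 20 genes of the granule and lysosome membrane, Nkg7 and Lamp1 were the 2 listed.

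**Figure D4:**
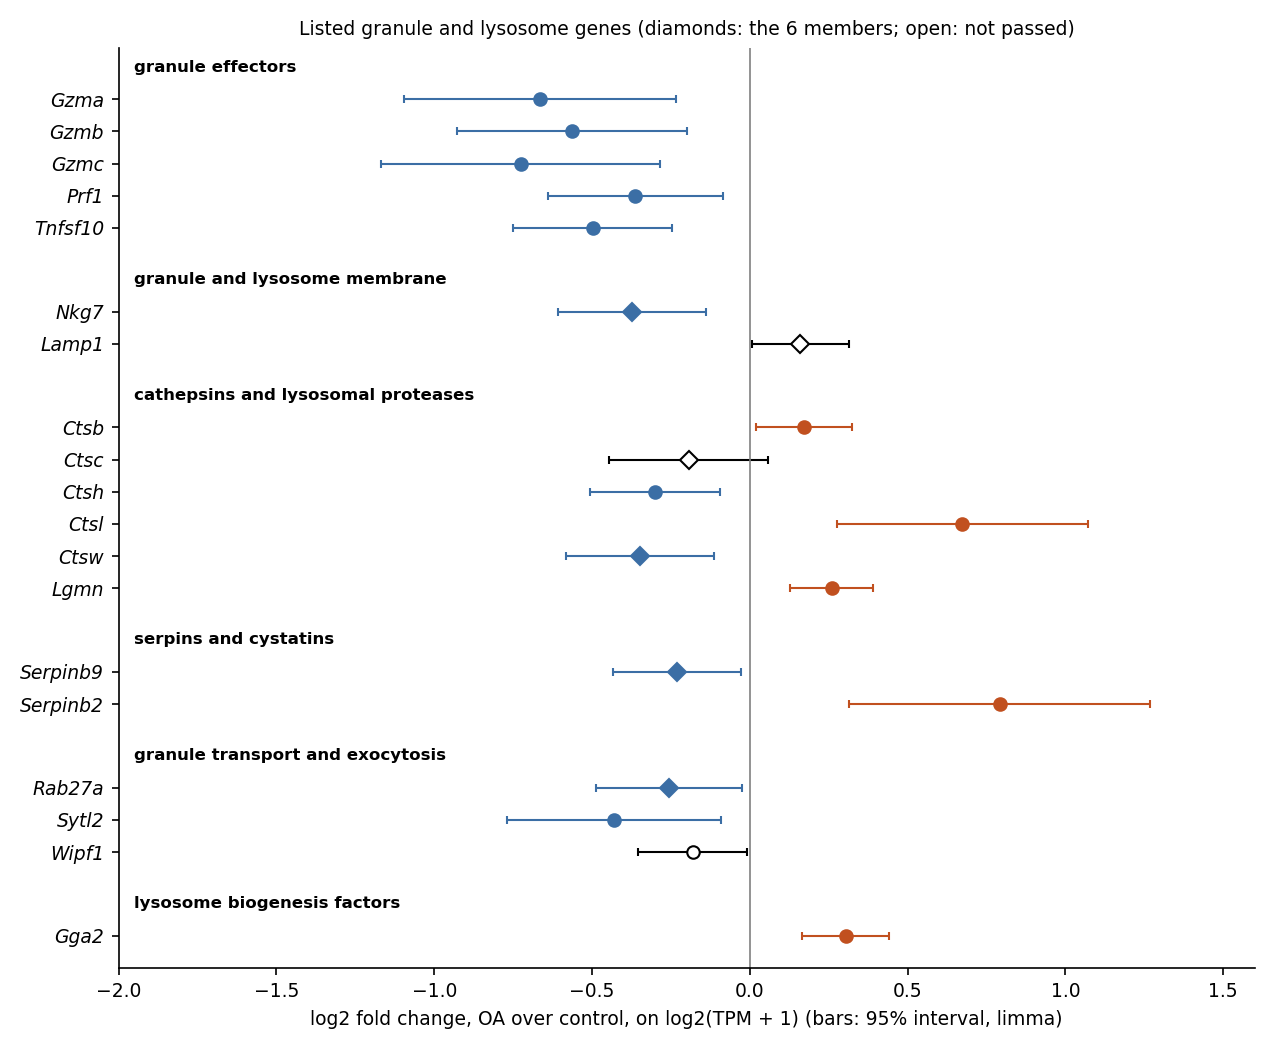
log2 fold changes of OA over control, on log2(TPM + 1), with 95% intervals from limma, for the 6 genes (diamonds) and the other listed granule and lysosome genes (circles), grouped by list. Open markers did not pass; the 5 effectors lie left of 0, and the proteases lie on both sides of it, from −0.35 (Ctsw) to 0.67 (Ctsl).

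Across the 6 libraries Nkg7, Ctsw, Ctsc, Serpinb9 and Rab27a ran together and Lamp1 ran opposite to them. Pearson's r on log2(TPM + 1), given as a description over 6 libraries that form 2 groups, was 0.87 to 0.99 among the first 5 genes and −0.93 to −0.80 between them and Lamp1. The groups did not overlap for these genes, nor for 93.6% of listed genes, so much of this r restates the direction of each difference. Taken as deviations from the group means, r was 0.74 to 0.97 among the 5 and −0.91 to −0.41 between them and Lamp1. The r of deviations was not computed for other listed genes, so it is not shown to be particular to the 6. Replicate 3 lay farthest out in both groups for 62.6% of listed genes, as it did for all 6. The 3 listed genes most like each of the 6, by the same measure, were Cd96, Cfb and Lta for Nkg7, S100a6, Atp10a and Sh2d2a for Ctsw, Gm1966, Parp14 and Oas3 for Ctsc, Spata13, Sytl2 and Il12rb2 for Serpinb9, Wipf1, Atp2b4 and Slc39a8 for Rab27a, and Ptgr1, Tnfrsf13c and Alas1 for Lamp1. All of these r values were between 0.989 and 0.999.

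Some gene spans overlap others in the genome. In GENCODE M21, Lamp1 overlaps Grtp1 over 3317 bases, Ctsc overlaps the non-coding RNA gene Gm26522 over 4743 bases and Ctsw overlaps Fibp over 9 bases, each on the opposite strand, and Rab27a overlaps the pseudogene Gm27186 over 307 bases on its own strand. None of these partners was in the table. These are overlaps of whole gene spans, introns included, and overlap of exons was not computed. Whether strand was used in counting was not given in the sources used here, so it is not known whether any reads were shared.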

How the data were processed

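RNA of 6 libraries, 3 OA and 3 control, was measured. Per the submitters' processing notes Bowtie2, RSEM 1.3.1, DESeq2 1.4.5 and mm10 were used, with no roles given. Per the file headers, the authors deposited TPM for each library, a mean TPM per group, a log2 ratio of OA to control, and a P value and Q value per gene. The table lists 559 genes with Q values up to 0.0499; other genes were not analysed here. Read numbers cannot be had from TPM, so the depth behind each value is unknown and counts were not modelled; 0 columns of values were left unmapped.

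Samples were grouped by the treatment label and columns matched by title. limma 3.58.1 (R 4.3.3) was run on log2(TPM + 1) over all 559 genes, unfiltered, without covariates, Benjamini-Hochberg adjusted, two-sided; fold changes on this scale understate low genes. It was tested on simulated data. Ratios of TPM used exact permutation tests (scipy 1.17.1, two-sided). Python 3.11.15, pandas 2.3.3, numpy 2.4.6 and matplotlib 3.10.9 were also used. The 6 genes and the lists were chosen with earlier results of these data known. Genes named are the 6, the listed granule genes, the 3 most correlated genes of each and the marker lists' most abundant pair; Ncr1 was named after its values were seen. Promoters came from RefSeq. Alternatives were other pseudocounts, a level filter, equal medians, a replicate block, an intensity trend, a stricter threshold, heart muscle genes left out, and libraries left out.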

Additional observations from a re-analysis of the deposited data

How the results depend on the processing

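No alternative turned the direction of any of the 6 genes, which leaving out libraries could not have done, as the groups do not overlap. With libraries scaled to equal medians 1 gene of the 6, Nkg7, stayed lower (log2 −0.38, adjusted p = 0.0469); Ctsw (−0.36, 0.0525), Serpinb9 (−0.24, 0.0840) and Rab27a (−0.27, 0.0853) did not pass, and 162 listed genes were higher and 82 lower, so 66.4% of calls were higher, against 47.3% as deposited. This scaling moved the median log2 fold change of all listed genes only from 0.135 to 0.125, while the SE of Nkg7 grew from 0.0930 to 0.117. Its medians were those of the listed genes alone, which the authors had selected. Lamp1 was the 1 gene called higher with a pseudocount of 10 (0.16), a level filter (0.16) and an intensity trend (0.16). At an adjusted p under 0.01, 0 of the 6 (Nkg7 −0.37, Ctsw −0.35, Serpinb9 −0.23, Rab27a −0.26), 1 listed gene lower and 0 higher were called (252 and 213 at an unadjusted p under 0.05). With the replicate block 0 of the 6 and 0 listed genes in either direction were called by limma (2 of the 6 lower, and 89 lower and 149 higher listed genes, at an unadjusted p under 0.05); the log2 fold changes were the same and adjusted p was 0.115 (Nkg7), 0.116 (Ctsw), 0.142 (Serpinb9) and 0.127 (Rab27a). The samples share only a number: deviations of same-numbered libraries correlated at 0.33, −0.11 and −0.08, and OA replicate 3 correlated best with control replicate 2 (0.35).

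Leaving out 1 library at a time, 0 to 3 of the 6 were lower and 0 higher, and 0 to 187 listed genes were lower and 0 to 177 higher. The 0 listed genes came without control replicate 1 and without OA replicate 2 (168 lower each, and 171 and 159 higher, unadjusted). Log2 fold changes ranged from −0.43 to −0.28 (Nkg7), 0.11 to 0.19 (Lamp1), −0.41 to −0.27 (Ctsw), −0.24 to −0.12 (Ctsc), −0.27 to −0.16 (Serpinb9) and −0.32 to −0.16 (Rab27a). The cause was not tested. The ratios moved by less than their SD under each alternative run, and that of Nkg7 to Prf1, whose groups overlap, lay between −0.06 and 0.04 with a library left out. TPM without read numbers leaves the depth limit unknown.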

Other observations

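Lamp1 kept a near constant ratio to Ctsb, a comparison chosen after their values were seen. The ratio of Lamp1 to Ctsb in TPM was 0.575, 0.567 and 0.578 in OA replicates 1, 2 and 3, against 0.577, 0.582 and 0.577 in control replicates 1, 2 and 3, and the groups overlapped. The log2 fold changes were 0.16 for Lamp1 and 0.17 for Ctsb. How many other listed genes kept such a ratio to Lamp1 was not computed. The ratio of Lamp1 to Lgmn was 7.78 to 7.90 in OA and 8.20 to 8.82 in control, and that of Lamp1 to Ctsl was 4.09 to 5.11 in OA and 6.15 to 7.48 in control, both without overlap. Lamp1, Ctsb, Ctsl and Lgmn were higher in each OA library than in each control library, and Nkg7, Ctsw, Ctsc and Ctsh were lower. Of all listed genes 45.1% were higher and 48.5% lower in this way, so such a split is common in the table.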
